A study of Mus musculus with 40 samples.

Results

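Lymphoid-primed multipotent progenitors (LMPPs) in which both copies of Mbd3 were deleted were compared with LMPPs that kept intact copies. The members were the 10 LMPP libraries of a table of 40, 5 from Mbd3-deleted mice (Mbd3del) and 5 from control mice, and only rows that were genes were used. The Mbd3del mice had the genotype Mbd3_Del/Del and the controls Mbd3_Flox/Flox, so the controls carried the floxed allele, not a wild-type one. All 10 mice were C57BL6/129Ola and 46 to 51 days old, with 3 males and 2 females labelled in each group. LMPPs were sorted from the marrow of the leg bones by flow cytometry as lineage-negative cells with Sca-1 and c-Kit, high Flt3, no IL-7Ra and no B220. Each library was a pool of 100 cells per the sample labels, although the study's design text gives another number for this population. Smart-seq2, which copies whole transcripts from small cell numbers, was used with no molecular identifiers and no mark of the strand. No source used here states what drove the deletion or in which cells. Haematopoietic stem cells (HSCs), B cell-biased lymphoid progenitors (BLPs) and all-lymphoid progenitors (ALPs) of the same 10 mice made up the other 30 libraries.

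LMPPs are early progenitors that have lost most platelet and red cell potential while they keep lymphoid potential and much myeloid potential. Mbd3 encodes a scaffold subunit of NuRD, a complex that joins a nucleosome remodelling ATPase (Chd4 or a relative) to histone deacetylases and is known both for silencing genes and for adjusting the level of active ones. Mbd3 and its relative Mbd2 take the same place in separate forms of the complex.

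Gene counts ranged from 5167645 to 7500055 in the Mbd3del libraries and from 6257696 to 8427880 in the control libraries. Levels are given as CPM, gene counts brought to 1 common library total after TMM scaling, and a count of 3 in a library was worth 0.362 to 0.572 CPM. TMM factors were set within each population, so levels read across populations, as for Il7r, Hlf, Lgals1 and Atp8b4, were not scaled jointly. The sample labels also give more cells per pool for HSCs than for the other populations. The Mbd3del libraries detected 14280 ± 373 genes and the control libraries 13528 ± 518 (SD, n = 5 each; two-sided exact permutation p = 0.0476, adjusted p = 0.190 over 4 library measures, with 0.00794 the smallest p the design allows). Control mouse10372 stood apart, with the lowest TMM factor (0.810), the highest share of counts in its 10 most counted genes (12.03%) and the fewest detected genes (12845). Transcripts of sex-linked genes went against the labelled sex in control mouse10372 and control mouse10381. Values without them are given beside several results, and small differences of other genes and list medians also changed sign without them.

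Mbd3 itself checked the labels, because the genotype fields of the 5 Mbd3del libraries give a deleted allele and their titles a floxed one. Its position in GRCm38 is chromosome 10, bases 80392539 to 80399550, on the minus strand (ENSMUSG00000035478.14). It had 1.11, 0.504, 0, 0.152 and 0.568 CPM in the Mbd3del libraries, against 50.7, 53.8, 22.9, 43.1 and 35.0 CPM in the control libraries. All 5 Mbd3del libraries were close to 0 and the groups did not overlap. Mbd3 fell in Mbd3del LMPPs, with a log2 fold change of -6.38 ± 0.78 (SE, edgeR adjusted p = 0.00986). Summed over libraries, 16 against 1474 counts put the Mbd3del level at 1.24% of control (95% interval 0.708% to 2.02%, for counting error only). The fold stayed between -6.98 and -6.08 when each library was left out in turn, but the adjusted p was 0.0657 without Mbd3del mouse10361, 0.0532 without Mbd3del mouse10384 and 0.0505 without control mouse10358.

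No NuRD gene other than Mbd3 was called, in a test that called 0.0183% of all genes tested. At that share the lack of a call says little about so few genes. Of 15 listed subunits 14 were tested, 7 with a positive and 7 with a negative log2 fold change, beside 51.1% positive and 48.9% negative over all genes tested. Their median was 0.08 against 0.01 over all genes tested, and -0.03 without control mouse10372. Mbd2, the alternative to Mbd3, ranged from 13.5 to 35.2 CPM in the Mbd3del libraries and from 13.5 to 123 CPM in the control libraries. The highest of these was control mouse10372, and the Mbd2 difference of -0.87 ± 0.60 became 0.02 without it. The remodelling ATPase gene Chd4 had 109 ± 17.2 CPM in Mbd3del cells and 80.1 ± 33.0 CPM in control cells, and its relative Chd3 had 37.9 ± 14.8 against 26.4 ± 11.6 CPM. Chd5, a mainly neuronal relative, was at or near 0 in all 10 libraries. The deacetylase genes Hdac1 (57.5 ± 15.6 against 58.1 ± 12.1 CPM) and Hdac2 (81.1 ± 21.8 against 101 ± 20.8 CPM) overlapped between genotypes. The histone chaperone genes were the most highly counted subunits, with Rbbp7 at 879 ± 139 CPM in Mbd3del cells and 1067 ± 183 CPM in control cells and Rbbp4 at 171 ± 47.5 against 149 ± 63.3 CPM (SD, n = 5 each). Mta1, Mta2, Mta3, Gatad2a, Gatad2b and Cdk2ap1 also overlapped, with log2 fold changes between -0.25 and 0.64. Without control mouse10372 the log2 fold change of Mta1 was -0.05, against 0.18 with all libraries, and that of Rbbp4 -0.01, against 0.20. None of the 13 other subunits tested passed the edgeR test (adjusted p from 0.937 to 1).

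Across the transcriptome few genes separated the genotypes. edgeR tested 10918 genes and called 2 of them (0.0183%), Mbd3 and Lgals1, both lower in Mbd3del LMPPs, and called none higher (0.00%). At an unadjusted p under 0.05 there were 567 genes (5.19%). Without scaling beyond the library total the split of calls was 3 higher (0.0275%) and 3 lower (0.0275%), and the median log2 fold change of all genes moved by 0.11, to 0.12. DESeq2 called 36 genes (0.330%), 18 higher and 18 lower (0.165% each), and limma voom called 0 (0.00%) while 887 genes had an unadjusted p under 0.05. Of the genes tested, 160 (1.47%) had 5 Mbd3del libraries wholly above or wholly below the 5 control libraries, 88 of them higher in Mbd3del LMPPs (0.806%) and 72 lower (0.659%). Such genes are called separated, as a description and not as a test. Of the 36 genes DESeq2 called, 35 were separated. The 9 other fits of the whole table that are counted below were DESeq2, limma voom and 7 with edgeR. These 7 called 0.0183% of genes with RLE scaling, 0.0550% without scaling, 0.0269% without an expression filter, 0.0332% with a minimum count of 50, 0.0916% with the newer estimator, 0.0183% with dispersions that were not robust and 0.0580% when all 40 libraries were fitted jointly.

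**Figure D1:**
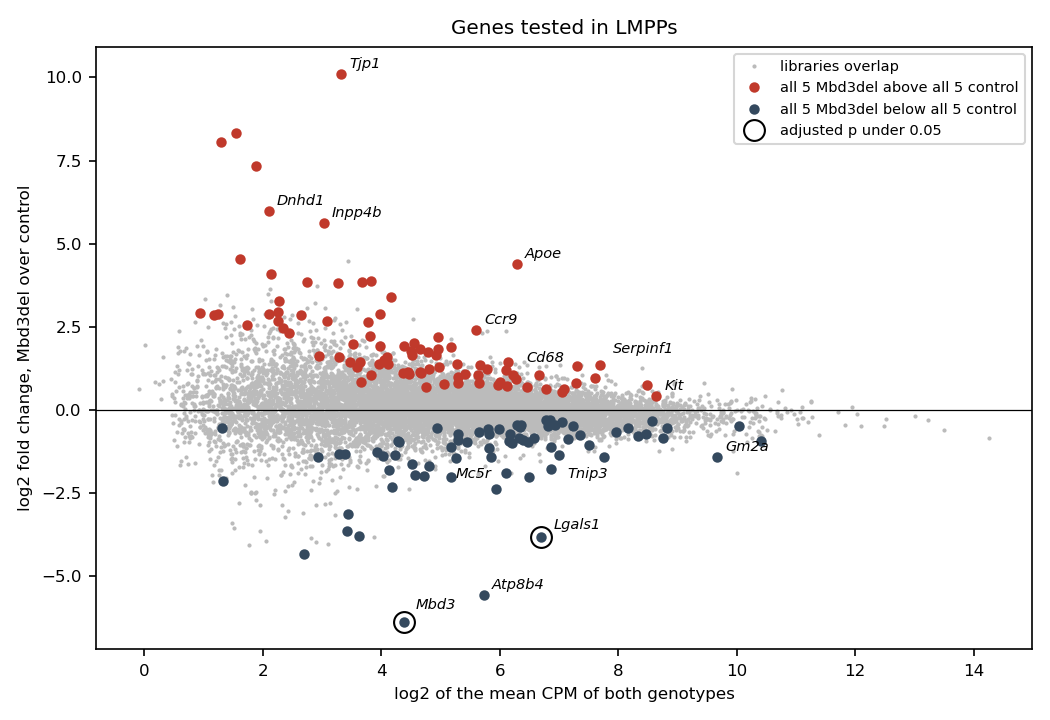
Log2 fold change (Mbd3del over control) of each gene tested in LMPPs against the log2 of its mean CPM. Red points are the 88 genes with all 5 Mbd3del libraries above all 5 control libraries, dark points the 72 genes with all 5 below, and the circles mark Mbd3 and Lgals1, the 2 genes with an edgeR adjusted p under 0.05.

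Lgals1, which encodes galectin-1, a lectin that is secreted and binds galactose-bearing glycoproteins on cell surfaces, had the smallest adjusted p of all genes tested. Its position in GRCm38 is chromosome 15, bases 78926725 to 78930465, on the plus strand. Lgals1 had 11.9, 15.6, 5.89, 14.3 and 20.1 CPM in the Mbd3del libraries, against 95.9, 112, 295, 209 and 255 CPM in the control libraries. The highest Mbd3del library held far less than the lowest control library. Means were 13.6 ± 5.21 CPM in Mbd3del cells and 193 ± 87.4 CPM in control cells (SD, n = 5 each), a log2 fold change of -3.83 ± 0.42 (SE, edgeR adjusted p = 0.00524). In counts, 445 against 6552 put Mbd3del at 7.77% of control (95% interval 7.04% to 8.55%, for counting error only). The call held when each library was left out in turn, with folds from -4.02 to -3.64, and was lost only with limma voom (adjusted p = 0.0907). In pools of cells, fewer cells that express a gene and less RNA per cell cannot be told apart.

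No other galectin gene was called, against 0.0183% called over all genes tested. Of 10 listed galectin genes 6 were tested, 3 with a positive and 3 with a negative log2 fold change. Lgals1 was the only one whose libraries did not overlap, against 1.47% without overlap over all genes tested. Lgals3, which encodes the galectin typical of macrophages, had 0 to 3.81 CPM in the Mbd3del libraries and 0 to 5.76 CPM in the control libraries. Lgals8 had 152 ± 51.9 CPM in Mbd3del cells and 122 ± 44.1 CPM in control cells. Lgals3bp, which encodes a glycoprotein that galectins bind, had 251 ± 116 against 191 ± 83.3 CPM. Of 16 listed genes for glycoproteins that galectin-1 binds 11 were tested, 6 positive and 5 negative, with a median of 0.05 and none called. Among them Lamp1, a lysosomal membrane glycoprotein gene, had 171 ± 39.1 against 132 ± 31.4 CPM, and the integrin gene Itga5 had 17.5 ± 12.3 against 8.70 ± 2.91 CPM.

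Several genes besides Lgals1 were lower in every Mbd3del library without passing the edgeR test. Mc5r, which encodes a melanocortin receptor, had 23.5, 26.5, 21.0, 35.9 and 36.3 CPM in the Mbd3del libraries, against 91.5, 162, 99.6, 93.9 and 95.8 CPM in the control libraries. Its groups did not overlap, with control mouse10358 well above the other controls, and its adjusted p of 0.0535 (log2 fold change -1.92 ± 0.29) lay just past the threshold. 5 of 9 other fits of the whole table called it. Atp8b4, which encodes a member of the P4 family of phospholipid-transporting ATPases, had 1.67, 0, 0.168, 7.61 and 1.32 CPM in the Mbd3del libraries, against 60.0, 62.5, 223, 51.1 and 125 CPM in the control libraries. It was near 0 in 4 Mbd3del libraries and above 50 CPM in every control library (log2 fold change -5.58 ± 0.99, edgeR adjusted p = 0.148). Mbd3del mouse10376 held the highest Mbd3del value, and without it the fold was -7.03 and the adjusted p 0.0300. Gm2a, which encodes the activator protein for lysosomal breakdown of GM2 ganglioside, had 395, 417, 313, 461 and 624 CPM in the Mbd3del libraries, against 758, 1211, 2145, 824 and 1038 CPM in the control libraries. All Mbd3del values lay below the control values (log2 fold change -1.43 ± 0.29, edgeR adjusted p = 0.150). DESeq2 called Mc5r, Atp8b4 and Gm2a (adjusted p = 2.1e-07, 0.000252 and 0.000911).

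The lower genes with the largest folds were of many kinds. Gpr160, which encodes an orphan G protein-coupled receptor, had 5.87 to 39.3 CPM (median 18.9) in the Mbd3del libraries and 59.2 to 184 CPM (median 89.1) in the control libraries, and its adjusted p was 0.150. Ms4a6b, of the membrane-spanning 4A family, had 13.0 to 47.3 CPM against 80.9 to 293 CPM. Its counts are uncertain because related family members can share reads. Ift88, a gene for the transport machinery of cilia, had 6.05 ± 2.16 CPM in Mbd3del cells and 30.2 ± 14.3 CPM in control cells. Tent5a, a poly(A) polymerase gene, had 1.63 ± 1.43 against 23.1 ± 11.7 CPM, and Cttn, which encodes the actin regulator cortactin, 0.597 ± 0.762 against 12.4 ± 8.80 CPM (SD, n = 5 each). Gapt, Zfp948 and Snx18 were separated too, with log2 fold changes of -2.02, -2.01 and -1.96, and control mouse10372 was the highest control library for all 3. None of these 8 genes passed the edgeR test (adjusted p from 0.150 to 0.778). DESeq2 called 6 of them, all but Zfp948 and Snx18.

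Of the genes tested, 3 had no count in any control LMPP library, and Tjp1 was among them. Tjp1, which encodes the tight junction scaffold ZO-1, had 15.6, 10.7, 6.40, 20.9 and 46.9 CPM in the Mbd3del libraries, against 0 CPM in each of the 5 control libraries. Its 620 counts against 0 make it at least 236-fold higher, with 3 counts over the control group as the floor. The edgeR adjusted p was 0.0705, and 4 of 9 other whole-table fits called Tjp1, DESeq2 among them (adjusted p = 3.8e-11). Serpinf1, which encodes the secreted serpin PEDF, had 324, 281, 262, 375 and 249 CPM in the Mbd3del libraries, against 114, 138, 102, 153 and 80.8 CPM in the control libraries. Both groups were narrow and far apart (log2 fold change 1.34 ± 0.22, edgeR adjusted p = 0.0705), and 4 of 9 other fits called it. Apoe, which encodes the lipid carrier apolipoprotein E, had 90.7, 143, 212, 219 and 82.1 CPM in the Mbd3del libraries, against 24.8, 2.45, 0.572, 0.641 and 6.76 CPM in the control libraries. Control mouse10357 was the highest control, and without it the log2 fold change was 5.79 and the adjusted p 0.0318, against 4.39 ± 0.88 and 0.150 with all libraries. Cd68, which encodes a lysosomal membrane glycoprotein known as a macrophage marker, had 197, 209, 186, 299 and 229 CPM in the Mbd3del libraries, against 50.8, 99.5, 111, 88.0 and 103 CPM in the control libraries. The Mbd3del libraries all lay above the control libraries (log2 fold change 1.31 ± 0.24, edgeR adjusted p = 0.148, DESeq2 adjusted p = 0.00102).

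Other genes higher in every Mbd3del library were taken by fold, which favours low control levels. Inpp4b, which encodes a phosphoinositide phosphatase, had 15.3, 12.5, 18.5, 11.9 and 22.0 CPM in the Mbd3del libraries, against 0.938, 0, 0.191, 0.160 and 0.242 CPM in the control libraries. It was above 10 CPM in every Mbd3del library and near 0 in every control library, with an edgeR adjusted p of 0.148. Dnhd1, which carries a dynein heavy chain domain, had 5.04 to 12.5 CPM against 0 to 0.258 CPM. Gria2, a glutamate receptor subunit gene best known from neurons, had 9.93 to 53.8 CPM in the Mbd3del libraries and 0 to 4.29 CPM in the control libraries. Scube3, which encodes a secreted glycoprotein, had 17.9 ± 8.46 CPM in Mbd3del cells and 1.26 ± 2.09 CPM in control cells. Il1r2, the decoy receptor of interleukin 1, had 57.0 ± 13.5 against 15.5 ± 9.81 CPM. Zfp418, Mttp, Nbeal1, Zyg11b and Hbb-bt were separated with log2 fold changes from 1.91 to 4.53, and Hbb-bt counts are uncertain because the adult beta globin genes are near-identical. None of the 10 genes passed the edgeR test (adjusted p from 0.148 to 0.855). DESeq2 called 8 of them, all but Mttp and Hbb-bt, and the newer estimator called Inpp4b and Gria2. The Mbd3del libraries detected more genes, as given above, and the part of this in the higher low-level genes was not tested.

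**Figure D2:**
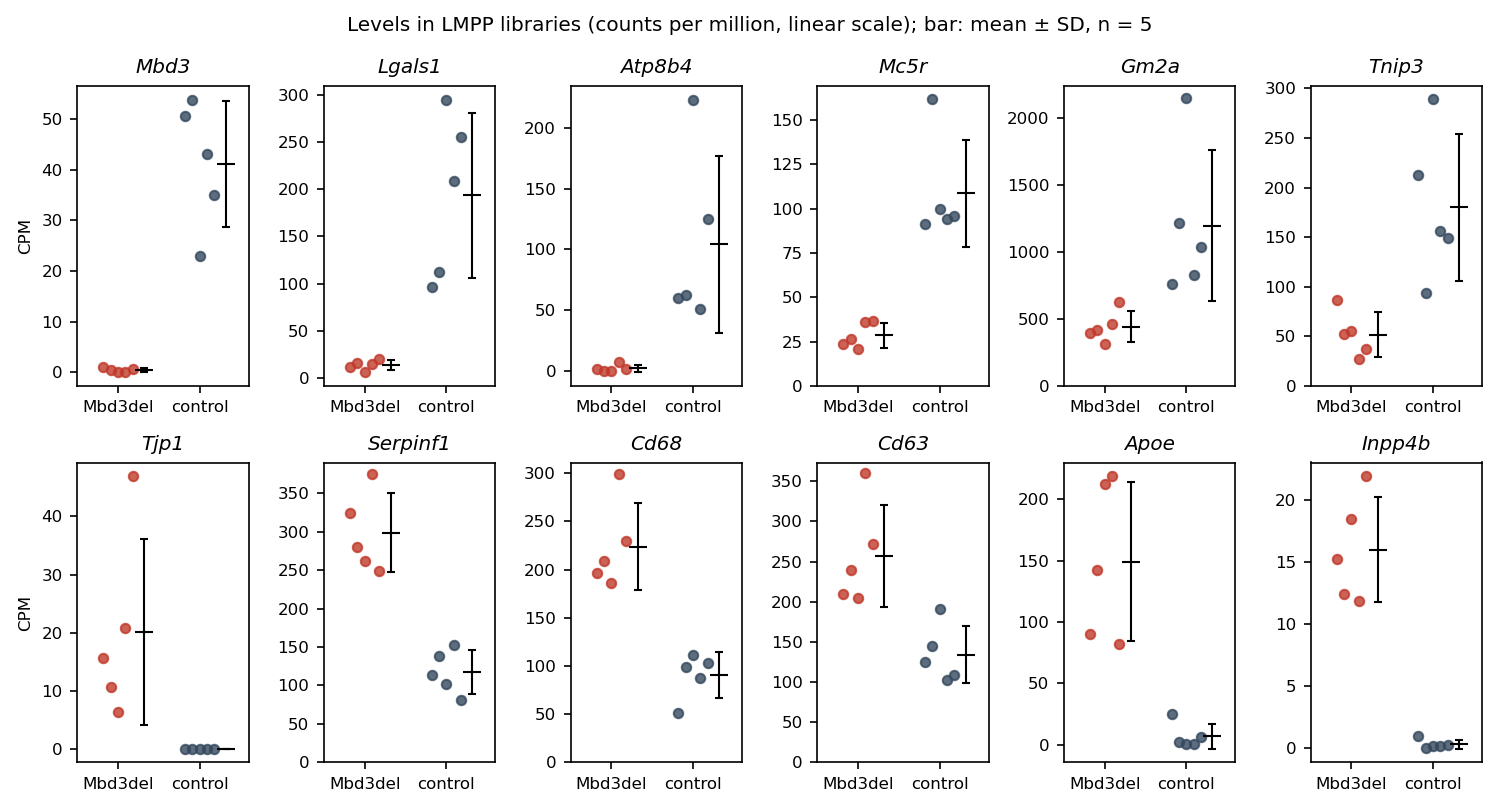
CPM of 12 genes in each LMPP library, on linear axes, with the mean ± SD beside the points (n = 5 per genotype; red Mbd3del, dark control). In each panel the 5 Mbd3del libraries do not overlap the 5 control libraries, from Mbd3 at 0 to 1.11 CPM against 22.9 to 53.8 CPM to Inpp4b at 11.9 to 22.0 CPM against 0 to 0.938 CPM.

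No gene close to Mbd3 on chromosome 10 was called, against 0.0183% called over all genes tested. Within 1 Mb on either side 80 genes were tested, 50 with a positive and 30 with a negative log2 fold change, with a median of 0.13, against 51.1% positive and a median of 0.01 over all genes tested. None had separated libraries, against 1.47% over all genes, and 3 had an unadjusted p under 0.05, against 5.19% over all genes.

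Among genes of the sort gate, Il7r was low in LMPPs of both genotypes, and the others are given without another population beside them. Il7r, whose protein the gate excludes, was at 0.337 to 4.35 CPM in Mbd3del cells and 1.28 to 6.84 CPM in control cells. The same gene had 243 to 577 CPM in Mbd3del ALPs and 380 to 713 CPM in control ALPs. Flt3 had 453 to 1024 CPM in Mbd3del cells and 376 to 861 CPM in control cells, and the stem cell marker gene Slamf1 was at most 0.160 CPM in any LMPP library. Procr, which encodes the stem cell marker EPCR, had 8.68 to 44.7 CPM in Mbd3del cells and 0.572 to 35.6 CPM in control cells. Ly6d, the marker of BLPs, had 1.64 to 39.0 CPM against 2.71 to 19.6 CPM. Cd34 had 1792 ± 496 CPM in Mbd3del cells and 1515 ± 534 CPM in control cells, and Ly6a, which encodes Sca-1, 225 ± 52.6 against 238 ± 150 CPM (SD, n = 5 each). Without control mouse10372 and mouse10381 the log2 fold changes were 0.68 for Ly6a, -0.06 for Cd34 and -0.02 for Procr, against -0.08, 0.24 and 0.65 with all libraries. Ptprc had 433 ± 83.4 against 522 ± 131 CPM and Cd48 523 ± 92.5 against 632 ± 136 CPM. B220, which the gate excludes, is a form of Ptprc that gene counts cannot tell apart. Of 10 sort marker genes 9 were tested, 5 positive and 4 negative, and 1 was separated, against 1.47% over all genes tested. That gene was Kit, which encodes the receptor of stem cell factor, with 452, 442, 442, 446 and 490 CPM in the Mbd3del libraries, against 436, 384, 367, 183 and 344 CPM in the control libraries. The Kit groups nearly touch, at 442 and 436 CPM, and the gene did not pass the test (log2 fold change 0.41 ± 0.21, edgeR adjusted p = 0.937).

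No gene of the stem cell program was called, against 0.0183% called over all genes tested. Most of the listed genes that were tested had a positive log2 fold change. Of 35 listed genes 30 were tested, and 24 had a positive and 6 a negative log2 fold change, beside 51.1% positive over all genes tested. Their median was 0.56 and stayed between 0.38 and 0.70 under 23 other settings. Hlf, a transcription factor gene of stem cells, had 348, 305, 217, 291 and 393 CPM in the Mbd3del libraries, against 241, 206, 102, 171 and 186 CPM in the control libraries. A single Mbd3del library, mouse10365, lay within the control range (log2 fold change 0.78 ± 0.24, edgeR adjusted p = 0.810). The adhesion receptor gene Adgrg1 had 381 to 1059.6 CPM in Mbd3del cells and 153 to 497 CPM in control cells, and the homeobox gene Meis1 had 281 ± 23.0 against 208 ± 47.6 CPM. Fhl1, a LIM domain gene, was the only listed member with separated libraries, against 1.47% separated over all genes tested. It had 7.76 to 24.8 CPM against 0 to 7.61 CPM, so its groups nearly touch. The HSC libraries of the same mice held more Hlf, with means of 621 CPM in Mbd3del and 528 CPM in control HSCs. In both populations the Hlf mean was higher in Mbd3del than in control cells.

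Priming towards the lymphoid, myeloid and dendritic lineages showed no called gene, against 0.0183% called over all genes tested. The medians of the lymphoid and myeloid lists changed sign with scaling. The lymphoid priming list had 13 positive and 14 negative genes of 27 tested, with a median of -0.02 that became 0.10 without scaling. Wfdc17, a gene for a small secreted whey acidic protein, had 205 to 690 CPM (median 448) in the Mbd3del libraries and 628 to 4454 CPM (median 697) in the control libraries, where control mouse10372 was the highest. Ccr9, which encodes the chemokine receptor that guides progenitors to the thymus, had 42.9, 142, 98.5, 61.2 and 62.1 CPM in the Mbd3del libraries, against 31.9, 0.258, 24.8, 4.01 and 15.9 CPM in the control libraries. Ccr9 was higher in all Mbd3del libraries but did not pass the test (log2 fold change 2.40 ± 0.80, edgeR adjusted p = 0.885). Ccr7, another homing receptor gene, had 39.7 ± 26.0 against 13.1 ± 8.03 CPM. Gimap6, a lymphoid GTPase gene, had 1169 ± 285 CPM in Mbd3del cells and 763 ± 210 CPM in control cells, whereas the surface antigen gene Cd52 had 159 ± 31.7 against 265 ± 145 CPM (SD, n = 5 each). Cd79b, of the B cell receptor, had 143 ± 20.8 against 172 ± 44.7 CPM, and Notch1 had 32.4 ± 10.9 against 39.0 ± 9.55 CPM.

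The myeloid priming list had 8 positive and 9 negative genes of 17 tested, with a median of -0.06 that became 0.06 without scaling. Its members with the smallest p were all lower in Mbd3del LMPPs. Lyz2, the lysozyme gene, had 338, 313, 311, 432 and 422 CPM in the Mbd3del libraries, against 429, 545, 700, 526 and 697 CPM in the control libraries. Clec12a, an inhibitory lectin receptor gene, had 72.6 ± 23.3 CPM in Mbd3del cells and 190 ± 111 CPM in control cells, and Cd53, a tetraspanin gene, 578 ± 258 against 1377 ± 1008 CPM. For Lyz2 the groups overlapped by a few CPM, and Cd53 was again highest in control mouse10372. Hk3, the hexokinase gene of myeloid cells, was separated, with 3.04 to 13.2 CPM against 16.5 to 43.0 CPM. Adjusted p-values of these 4 genes ran from 0.634 to 0.937 in edgeR. Among dendritic cell genes 12 of 17 tested were positive, with a median of 0.32. H2-Aa, a class II antigen presentation gene, had 92.6 ± 44.1 CPM in Mbd3del cells and 17.8 ± 17.8 CPM in control cells. H2-Ab1 had 184 ± 119 against 97.1 ± 25.2 CPM and Cd74, the class II invariant chain gene, 144 ± 63.3 against 59.4 ± 37.9 CPM, and all 3 overlapped between genotypes.

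**Figure D3:**
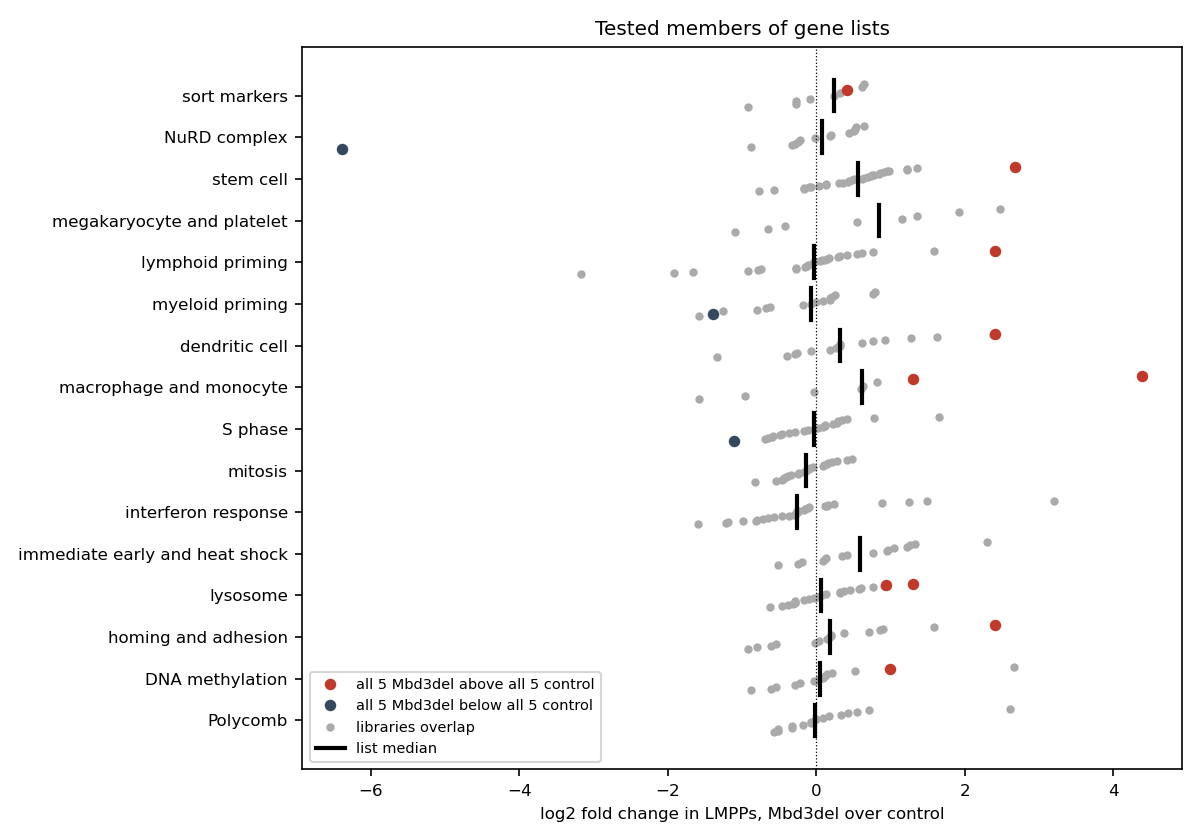
Log2 fold change (Mbd3del over control) of the tested members of 16 gene lists in LMPPs, with each list's median as a black bar. Red and dark points are members whose 5 Mbd3del libraries lie wholly above or wholly below the 5 control libraries. The stem cell median is 0.56 and the myeloid priming median -0.06, and Mbd3 at -6.38 is the lone separated NuRD member.

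Markers of macrophages were examined beside Cd68 and Apoe, which macrophages also express. The summed level of 18 macrophage and monocyte genes was 331 to 622 CPM in the Mbd3del libraries and 126 to 182 CPM in the control libraries, without overlap. Without Cd68 and Apoe the other 16 summed to 26.1 to 105 CPM against 37.5 to 71.8 CPM and overlapped. The defining markers Adgre1 and Marco were at 0 in all 10 libraries. Csf1r, the receptor gene of the macrophage growth factor, had 0, 0.126, 26.6, 0.761 and 0.189 CPM in the Mbd3del libraries. In the control libraries it had 13.9, 0, 20.6, 22.1 and 26.1 CPM. Other members had more summed counts in Mbd3del LMPPs. Vcam1 had 255 against 3, C1qc 118 against 23, C1qb 54 against 1 and Fcgr1 40 against 0. The sum was also higher for Ccr2 (238 against 184), C1qa (53 against 28), Axl (166 against 147), Mrc1 (13 against 9) and Cd14 (43 against 42). Each of these genes was at 0 in at least 1 library of each genotype. Fewer summed counts in Mbd3del LMPPs were found for Csf1r (165 against 566), Cd163 (222 against 467), Hmox1 (419 against 479), Ms4a7 (29 against 54) and Cx3cr1 (0 against 36). The 16 members together had 1815 against 2039 counts. These sums are raw, and all genes together had 31612357 counts in Mbd3del and 36167411 in control LMPPs. The shortfalls of Hmox1 and of the 16 members together are no larger than this difference in depth. All members named here were chosen after their values were seen, and the part of macrophage RNA in the Cd68 and Apoe differences was not tested. Of the list 8 genes were tested, 5 positive and 3 negative, and Cd68 and Apoe were the 2 that were separated, against 1.47% over all genes tested. Erythroid genes had 4 tested members, 2 in each direction. Car2, a carbonic anhydrase gene, had 2093 ± 612 CPM in Mbd3del cells and 1391 ± 602 CPM in control cells. The megakaryocyte and platelet list had 8 of 17 genes tested, 5 positive, with a median of 0.85 that was 0.52 without Mbd3del mouse10360 and 0.07 with a minimum count of 50. Its members included Nfe2, a transcription factor gene (340 ± 105 against 233 ± 88.7 CPM), and the integrin gene Itga2b (6.38 ± 2.61 against 1.66 ± 2.09 CPM). Of neutrophil granule genes 2 of 12 were tested, S100a8 and S100a9, and their median of -1.56 rested on control mouse10381, since it was 1.28 without that library. S100a8 had 3.19 to 41.2 CPM in the Mbd3del libraries, against 193 CPM in control mouse10381 and 3.62 to 8.98 CPM in the other 4 control libraries. Stromal and endothelial genes had 9 of 20 members tested, 7 positive, with no separated member. Lists of T lineage, B lineage, mature B and plasma cell, and NK and innate lymphoid genes had 5 tested members each, none separated.

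Cell cycle genes were mixed. The S phase list had 11 positive and 12 negative genes of 23, with a median of -0.02 that became 0.08 without scaling. Ccne2, which encodes cyclin E2 of the entry into S phase, had 60.8, 101, 64.6, 64.5 and 79.3 CPM in the Mbd3del libraries, against 103, 171, 121, 148 and 258 CPM in the control libraries. It was lower in every Mbd3del library, if narrowly (log2 fold change -1.11 ± 0.28, edgeR adjusted p = 0.527). Pcna, the replication clamp gene, had 244 ± 57.5 CPM in Mbd3del cells and 343 ± 73.7 CPM in control cells, and Tyms, the thymidylate synthase gene, 133 ± 41.4 against 200 ± 54.3 CPM. These S phase genes were taken by p, while 11 of the 23 listed went the other way. Mitosis genes had 8 positive and 15 negative members of 23 tested, with a median of -0.13. Mki67 had 91.5 ± 41.3 against 161 ± 79.8 CPM and Top2a 201 ± 38.6 against 262 ± 49.7 CPM (SD, n = 5 each). Bub1 had 20.6 to 72.5 CPM in Mbd3del cells and 30.4 to 98.7 CPM in control cells. Kif23 went the other way, with 92.7 to 110 CPM in Mbd3del cells and 40.6 to 114 CPM in control cells. No member of either list was called, against 0.0183% over all genes tested.

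Immediate early genes spread widely among the Mbd3del libraries. Of 24 immediate early and heat shock genes 16 were tested, 13 positive and 3 negative, with a median of 0.59 that ranged from 0.32 to 0.98 under 23 other settings. Junb, an AP-1 subunit gene, had 37.9, 91.9, 248, 49.0 and 5.68 CPM in the Mbd3del libraries, against 19.03, 20.9, 0.191, 28.5 and 18.7 CPM in the control libraries. Mbd3del mouse10365 was the highest and Mbd3del mouse10384 lay below most controls. Egr1 was also highest in Mbd3del mouse10365 (163 CPM) and lowest in Mbd3del mouse10384 (2.08 CPM), against 0.191 to 58.3 CPM in the control libraries. Dusp2, a phosphatase gene, had 237 ± 143 CPM in Mbd3del cells and 94.3 ± 32.9 CPM in control cells. Zfp36, which encodes an RNA-destabilising protein, had 225 ± 212 against 109 ± 61.2 CPM. Interferon response genes had 8 positive and 21 negative members of 29 tested and a median of -0.26. Gbp3, a guanylate-binding protein gene, had 33.3 ± 13.1 against 76.3 ± 34.8 CPM, while Rsad2, which encodes the antiviral protein viperin, had 25.5 ± 15.1 against 9.06 ± 7.58 CPM. None was called or separated, against 0.0183% called and 1.47% separated over all genes tested.

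Genes of DNA methylation held 1 separated member and genes of lysosomes 2, against 1.47% separated over all genes tested. Tet3, which encodes an enzyme that oxidises methylated cytosine, had 74.7, 39.8, 51.0, 48.2 and 48.8 CPM in the Mbd3del libraries, against 32.4, 23.9, 10.5, 36.2 and 28.7 CPM in the control libraries. It lay above control in every Mbd3del library but did not pass the test (log2 fold change 0.996 ± 0.378, edgeR adjusted p = 0.937). Of 16 genes of DNA methylation 14 were tested, 8 positive and 6 negative. The 17 Polycomb genes were all tested, 7 positive and 10 negative, and Ezh2, the methyltransferase gene, had 113 ± 20.9 CPM in Mbd3del cells and 161 ± 37.1 CPM in control cells. Hoxa9, a homeobox gene of early progenitors, had 279 ± 37.6 against 312 ± 81.6 CPM, and Mycn had 88.8 ± 17.4 against 49.0 ± 24.2 CPM. The lysosome list had 14 positive and 10 negative members of 24 tested, with a median of 0.06. Its separated members were Cd68 and Cd63, a tetraspanin gene of lysosomes and exosomes with 210, 239, 204, 360 and 272 CPM in the Mbd3del libraries, against 125, 145, 191, 102 and 109 CPM in the control libraries. The lowest Mbd3del library stood just above the highest control library, and Cd63 was not called in LMPPs (log2 fold change 0.94 ± 0.23, edgeR adjusted p = 0.527). Among other members, the protease genes Ctsd (166 ± 70.5 against 87.6 ± 30.0 CPM) and Ctss (137 ± 38.2 against 210 ± 57.8 CPM) pointed in opposite directions. Igf2r, an imprinted gene for the receptor that carries enzymes to lysosomes, was separated, with 7.78 ± 4.67 CPM in Mbd3del and 27.5 ± 9.55 CPM in control LMPPs (edgeR adjusted p = 0.742).

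The same genotypes were compared in the other populations to see which LMPP differences recurred. The populations came from the same mice, so they are not independent. edgeR called 2 genes in HSCs (0.0176%), 2 in ALPs (0.0182%) and 8 in BLPs (0.0743%). Mbd3 was among those called in HSCs and BLPs but not in ALPs, where the calls were Serpinf1 and Cd63. Mbd3 levels in these populations are not given here, so the deletion is checked in this text for LMPPs only. Of the 88 genes separated upwards in LMPPs, 3 of 82 tested in HSCs (3.66%) were separated the same way there, 7 of 80 in ALPs (8.75%) and 5 of 73 in BLPs (6.85%). These were 4.92%, 16.3% and 2.69% of the genes separated upwards in those populations. Over all genes 0.537% of those tested were separated upwards in HSCs, 0.391% in ALPs and 1.73% in BLPs. Of the 71 genes other than Mbd3 separated downwards, 4 of 67 (5.97%), 4 of 68 (5.88%) and 2 of 64 (3.13%) recurred in HSCs, ALPs and BLPs, against 0.440%, 0.391% and 0.956% over all genes. These were 8.16%, 9.52% and 1.96% of the genes other than Mbd3 separated downwards there. Genes separated in the same direction in LMPPs and at least 2 other populations were chosen after their values were seen. They were Tjp1 in all 4 populations, Serpinf1 and Cd63 in LMPPs, ALPs and BLPs, Cd68 in HSCs, LMPPs and BLPs, and Lgals1 and Tnip3 in HSCs, LMPPs and ALPs.

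Windows at the RefSeq start of these recurrent genes, separated the same way in several populations, are shown with each CG dinucleotide in capitals. CG was marked because NuRD forms are named for their methyl-CpG-binding domain subunits. That name does not show that Mbd3 itself binds methylated CG, and binding was not measured. The sequences run from 250 bases before to 50 after the start that the RefSeq table gives, 5′ to 3′ on the gene's strand, from RefSeq on GRCm38.p6, and 5 of the 6 genes had an entry, all but Lgals1. That start lies 17 bases from the GENCODE gene start for Cd68 and 78 for Serpinf1, but 8356 for Cd63, 65085 for Tnip3 and 156537 for Tjp1, so these 3 windows are at other starts within the gene. Which start was used in LMPPs cannot be read from counts per gene.
Tjp1, chr7:65371195-65371494, minus strand: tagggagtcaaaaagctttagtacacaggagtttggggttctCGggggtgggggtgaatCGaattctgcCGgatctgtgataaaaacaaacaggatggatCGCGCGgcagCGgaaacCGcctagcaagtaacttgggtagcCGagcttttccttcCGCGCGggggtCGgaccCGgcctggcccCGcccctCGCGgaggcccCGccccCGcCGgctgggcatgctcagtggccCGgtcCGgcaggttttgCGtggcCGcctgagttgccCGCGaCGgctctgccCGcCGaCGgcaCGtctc
Serpinf1, chr11:75422574-75422873, minus strand: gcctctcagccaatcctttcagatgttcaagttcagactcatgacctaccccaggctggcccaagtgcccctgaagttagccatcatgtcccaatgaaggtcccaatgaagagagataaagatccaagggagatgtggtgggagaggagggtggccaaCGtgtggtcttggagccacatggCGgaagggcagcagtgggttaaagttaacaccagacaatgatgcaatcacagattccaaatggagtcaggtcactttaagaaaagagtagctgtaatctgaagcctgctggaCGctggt
Cd63, chr10:128909095-128909394, plus strand: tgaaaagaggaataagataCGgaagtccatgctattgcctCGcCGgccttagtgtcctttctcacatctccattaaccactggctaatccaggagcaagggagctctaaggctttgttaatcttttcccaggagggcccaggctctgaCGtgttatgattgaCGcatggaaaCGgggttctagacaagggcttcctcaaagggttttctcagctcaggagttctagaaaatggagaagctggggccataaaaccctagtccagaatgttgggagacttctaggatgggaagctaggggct
Cd68, chr11:69666121-69666420, minus strand: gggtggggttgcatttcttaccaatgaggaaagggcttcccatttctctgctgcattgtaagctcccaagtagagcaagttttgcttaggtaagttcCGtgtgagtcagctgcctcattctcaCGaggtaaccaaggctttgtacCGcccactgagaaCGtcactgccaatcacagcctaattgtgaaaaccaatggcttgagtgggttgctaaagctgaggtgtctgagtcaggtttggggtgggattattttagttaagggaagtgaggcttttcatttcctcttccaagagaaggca
Tnip3, chr6:65590148-65590447, plus strand: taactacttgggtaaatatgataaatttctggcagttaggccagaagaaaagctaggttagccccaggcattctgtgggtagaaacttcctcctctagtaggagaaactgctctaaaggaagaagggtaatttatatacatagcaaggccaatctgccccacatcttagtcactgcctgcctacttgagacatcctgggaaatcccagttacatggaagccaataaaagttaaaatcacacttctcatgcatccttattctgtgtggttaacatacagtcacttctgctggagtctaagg

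Tjp1 differs from the other 4 in these windows. Its window, at a start far inside the gene, holds 31 CG dinucleotides, and 10.6% of the 32851 windows in the RefSeq table hold at least as many. Cd63 holds 6, Cd68 holds 4, Serpinf1 holds 3 and Tnip3 holds 0, against a median of 7 over all windows. CG is the same on both strands, so each was counted once, and methylation was not measured. Whether CG content at these starts bears on the action of Mbd3 was not tested.

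Tjp1 was present in Mbd3del cells of every population and low or undetected in control cells. It had 55.1 ± 13.8 CPM in Mbd3del HSCs against 7.59 ± 9.08 CPM in control HSCs, 19.3 ± 16.3 against 0.601 ± 0.902 CPM in ALPs and 28.2 ± 13.0 against 2.44 ± 3.74 CPM in BLPs (SD, n = 5 each). The edgeR test did not call it in these populations either (adjusted p = 0.955, 1 and 0.372). Serpinf1 overlapped between genotypes in HSCs, at 415 ± 143 CPM in Mbd3del and 381 ± 36.5 CPM in control HSCs. In ALPs it rose, with 209 ± 30.5 CPM in Mbd3del cells and 48.1 ± 11.8 CPM in control cells (edgeR adjusted p = 0.00947), and in BLPs it had 137 ± 52.1 against 25.1 ± 18.4 CPM (edgeR adjusted p = 0.0844). Cd68 had 168 ± 64.5 against 26.3 ± 14.4 CPM in HSCs (edgeR adjusted p = 0.0867) and rose in BLPs, with 168 ± 84.3 CPM in Mbd3del cells and 23.2 ± 9.32 CPM in control cells (edgeR adjusted p = 0.0105). Tnip3, which encodes a binding partner of the NF-kB regulator A20, had 86.7, 52.3, 55.0, 27.2 and 37.7 CPM in the Mbd3del LMPP libraries, against 213, 93.6, 289, 156 and 149 CPM in the control LMPP libraries. It was lower in all of them (log2 fold change -1.80 ± 0.36, edgeR adjusted p = 0.150) and in HSCs had 114 ± 57.1 against 267 ± 47.4 CPM.

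Whether a genotype difference in LMPPs differed from that in another population was tested as an interaction over 13800 genes and all 40 libraries. Against HSCs and ALPs edgeR called 0 genes (0.00% each), with 790 (5.72%) and 1029 (7.46%) at an unadjusted p under 0.05, while DESeq2 called 37 and 36. Against BLPs it called 4 (0.0290%), which were Lgals1, Cd63, Atp8b4 and Cpq, with 1183 (8.57%) at an unadjusted p under 0.05. With the mouse as a block, which the design allows because each mouse gave all 4 populations, the count against BLPs was 1 (0.00725%), Lgals1, and against HSCs and ALPs 0.

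Lgals1 was low in Mbd3del LMPPs but not in Mbd3del BLPs. In BLPs it had 628 ± 307 CPM in Mbd3del cells and 492 ± 298 CPM in control cells, and the difference of log2 fold changes, LMPP minus BLP, was -4.18 ± 0.53 (edgeR adjusted p = 1.5e-05, and 0.00101 with the mouse as a block). In HSCs it had 21.0 ± 6.56 against 83.0 ± 23.1 CPM and in ALPs 108 ± 26.2 against 303 ± 128 CPM. The LMPP minus HSC difference was -1.87 ± 0.52 and the LMPP minus ALP difference -2.37 ± 0.52, neither called in edgeR (adjusted p = 0.457 and 0.157). Along the series, with each population scaled by itself, Mbd3del levels were 21.0, 13.6, 108 and 628 CPM in HSCs, LMPPs, ALPs and BLPs. Control levels were 83.0, 193, 303 and 492 CPM.

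Atp8b4 was near 0 in HSCs of both genotypes, at 0.712 ± 0.411 CPM in Mbd3del and 0.822 ± 0.532 CPM in control HSCs. Mbd3del LMPPs held 2.15 ± 3.13 CPM and control LMPPs 104 ± 72.6 CPM, whereas in ALPs the means were 51.8 ± 37.6 CPM in Mbd3del and 153 ± 41.5 CPM in control cells. In BLPs Atp8b4 had 97.6 ± 71.6 against 200 ± 19.8 CPM, and the LMPP minus BLP difference was -4.55 ± 0.88 (edgeR adjusted p = 0.0237). That call was lost with the block (adjusted p = 0.173) and without control mouse10372 and mouse10381 (adjusted p = 0.474). Leaving out a single library also ended it for Mbd3del mouse10360 (0.0589), mouse10365 (0.0656) and mouse10384 (0.0578) and for control mouse10372 (0.0598). A fit of the LMPP and BLP libraries alone gave an adjusted p of 0.0729, and the fit without an expression filter 0.0989.

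Cd63 and Cpq differed more in BLPs than in LMPPs. Cd63 rose in Mbd3del ALPs (98.7 ± 29.8 against 11.3 ± 5.52 CPM, edgeR adjusted p = 0.0265) and BLPs (65.3 ± 29.4 against 7.58 ± 2.70 CPM, adjusted p = 0.0105), and its LMPP minus BLP difference was -2.18 ± 0.42 (adjusted p = 0.0237, 0.0796 with the block). Cpq, which encodes a carboxypeptidase, had 123, 92.9, 90.1, 108 and 87.4 CPM in the Mbd3del LMPP libraries, against 170, 130, 194, 155 and 268 CPM in the control LMPP libraries. The LMPP groups did not overlap, but the gene was called in BLPs alone, at 0.684 ± 0.537 against 23.5 ± 16.3 CPM (edgeR adjusted p = 0.0478). Its LMPP minus BLP difference was 4.21 ± 0.81 (adjusted p = 0.0237, 0.173 with the block). The Cd63 interaction missed the threshold without Mbd3del mouse10360 (adjusted p = 0.0589), mouse10361 (0.0537) or mouse10365 (0.0656), and in a fit of the LMPP and BLP libraries alone (0.0517). The Cpq interaction missed it without Mbd3del mouse10360 (0.0589) or mouse10365 (0.0656), without control mouse10358 (0.0559) or mouse10380 (0.0515), without both control mouse10372 and mouse10381 (0.104), and without an expression filter (0.0734). The Lgals1 interaction held without each LMPP library in turn and without those 2 controls.

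**Figure D4:**
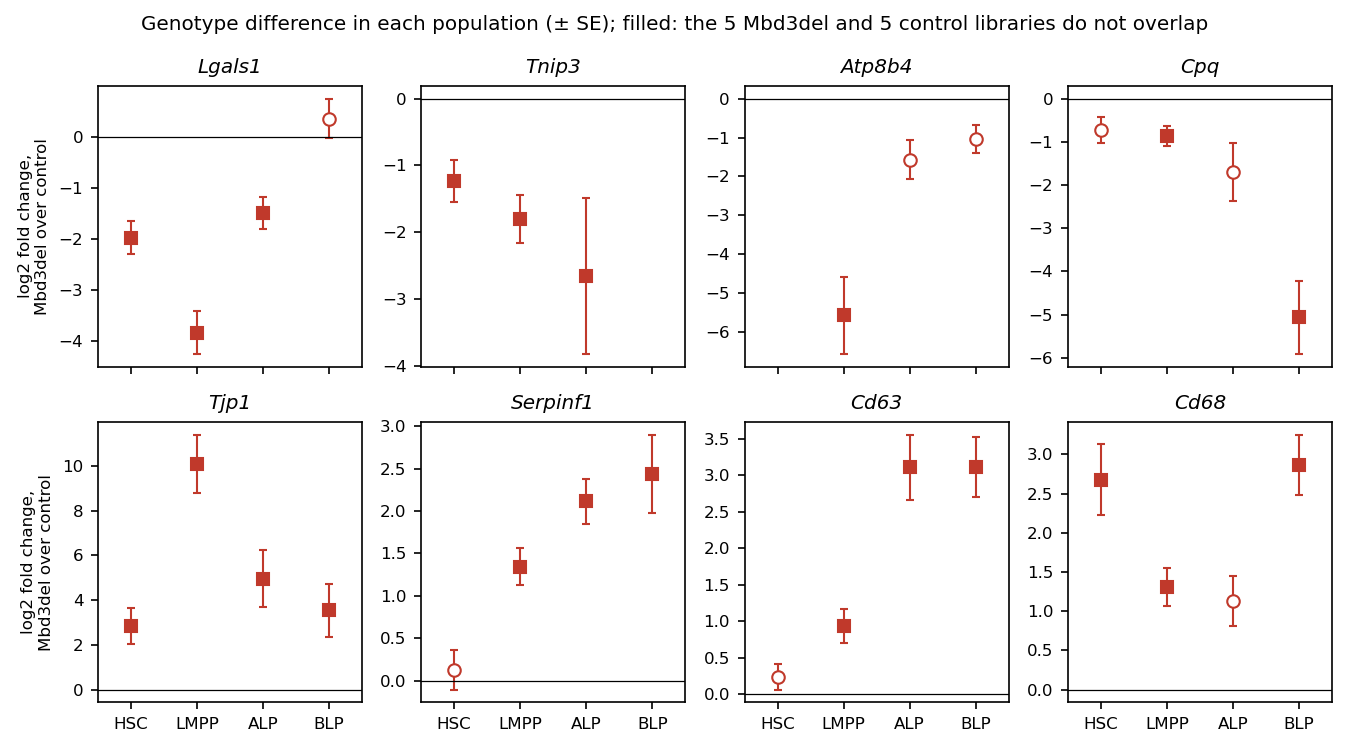
Log2 fold change of Mbd3del over control (± SE) for 8 genes in HSCs, LMPPs, ALPs and BLPs, with filled squares where the 5 Mbd3del and 5 control libraries do not overlap and no point where a gene was too low to be tested. Lgals1 runs from -3.83 in LMPPs to 0.35 in BLPs, and the Tjp1 point in LMPPs depends on the prior count because control LMPPs had 0 counts.

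The other genes called in a neighbouring population showed little in LMPPs. Pxdn, a basement membrane peroxidase gene called in HSCs, had 2 counts in all Mbd3del LMPP libraries together and 0 in control LMPPs. Of the genes called in BLPs, Rrm2, a ribonucleotide reductase subunit gene, had 125 ± 37.7 CPM in Mbd3del cells and 197 ± 62.2 CPM in control cells, while for Prr13 the means were 475 ± 173 against 455 ± 124 CPM. Nckap1, a gene of the WAVE actin complex, had 0 to 28.9 CPM against 0 to 17.8 CPM, and Ly6c2, whose near copies can share reads, was at or near 0 in all 10 LMPP libraries.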

How the data were processed

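The authors deposited 1 table of raw counts per gene for 40 libraries, and the 10 LMPP columns were used here, with the others for comparison. The submitters' processing notes name STAR 2.5.2b, HTSeq 0.6.1p1 and the build GRCm38, but no source used here states the annotation release or the strand setting. Of 128910 rows 49585 are genes. The other rows, named repRegion, held 0.205% to 2.28% of the counts of a library and were left out of library sizes and tests. Symbols and coordinates came from GENCODE M21, which matched 49326 gene rows. Overlapping genes and near-identical copies are uncertain, since strand was not marked. Mbd3 counts do not show which exons were read, nor is it known here which part of the gene was deleted.

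Genotype in LMPPs (Mbd3del over control, 5 libraries each, no covariate) was tested in edgeR 4.0.16 (R 4.3.3) by its quasi-likelihood F test. The fit used robust dispersions, TMM scaling and the default filter, with a minimum count of 10 and a minimum total of 15. P-values were adjusted by the Benjamini-Hochberg method over all genes tested, with 0.05 as the threshold. SE is the log2 fold change over the square root of F. Interactions came from 1 fit of all 40 libraries in 8 groups. Alternatives were DESeq2 1.42.0, limma 3.58.1 (voom), other scalings, filters, covariates and library subsets. The edgeR step was tested on simulated data. Separated means that all 5 libraries of one genotype lay above all 5 of the other in CPM. The p-values for genotype measure the spread between libraries of different mice, which includes that of sorting and amplification. The main interaction fit treats all 40 libraries as independent, and the fit with the mouse as a block measures the spread within mice. The 95% intervals and the floor of 3 counts cover counting error only, since amplified reads are not independent molecules.

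Each mouse gave 1 library of every population, so its number pairs the populations by animal. Deviations from group means in LMPPs correlated with those of the same mouse in the other populations at -0.12 to 0.14.

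The members, the 32 gene lists (567 genes) and the designs were chosen with earlier results of these data known, so no list is independent evidence. The genes named were Mbd3, every called gene, and up to 12 per direction by fold among separated genes with an unadjusted p under 0.01, a mean of at least 5 CPM and a symbol that is no gene model. To these come all sort marker and NuRD genes, up to 4 of each other list by p, genes called in another population or in an interaction, and genes called by at least 3 of 9 other fits of the whole table. Lists that the text treats only in passing are covered by counts. A gene that met these criteria is not reported here, though list counts include it. Tnip3, the macrophage list members named beside Cd68 and Apoe, and the group of genes separated in several populations, were chosen after their values were seen.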

Additional observations from a re-analysis of the deposited data

Results flagged for a closer look

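In 29 cases of 210 groups checked (105 genes, 2 genotypes), 1 library of 5 lay far from the other 4 by Dixon's criterion at 95%, applied to linear CPM. Chance alone meets it in about 1 of 20 groups only if values are normally distributed. Linear CPM need not be, so the 29 cases do not show an excess of outlying libraries. Groups where a single library held any count, as for Slamf1, Chd5 and Pxdn, meet it by construction. Control mouse10372 held 6 of the 29 cases as the highest of its group, with 4454 CPM of Wfdc17, 3159 CPM of Cd53, 135 CPM of Gapt, 101 CPM of Zfp948, 123 CPM of Mbd2 and 0.191 CPM of Chd5. Mbd3del mouse10365 held the highest Mbd3del value of Mta2 (196 CPM), Lgals3bp (452 CPM), Csf1r (26.6 CPM) and Ly6c2 (1.01 CPM). Mbd3del mouse10376 held that of Atp8b4 (7.61 CPM), Lgals3 (3.81 CPM) and Slamf1 (0.152 CPM), and Mbd3del mouse10384 that of Kit (490 CPM), Ly6d (39.0 CPM), Chd5 (0.568 CPM) and Pxdn (0.379 CPM). Among the other control libraries, mouse10357 was the highest for Apoe (24.8 CPM), Inpp4b (0.938 CPM) and Flt3 (861 CPM). Control mouse10358 was the highest for Mc5r (162 CPM), Gatad2a (140 CPM), Rsad2 (22.3 CPM) and Nckap1 (17.8 CPM). Control mouse10380 was the highest for Hk3 (43.0 CPM), Scube3 (4.97 CPM) and Slamf1 (0.160 CPM), and control mouse10381 for Ly6d (19.6 CPM) and Zfp418 (0.725 CPM). The 105 genes left out some named above, among them S100a8 and S100a9. In control mouse10381 S100a8 had 193 CPM and S100a9 49.0 CPM, against at most 8.98 and 3.10 CPM in the other control libraries.

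The genotype difference differed between LMPPs and BLPs by the interaction test of edgeR for 4 genes, with LMPP minus BLP differences of log2 fold changes of -4.18 for Lgals1, -4.55 for Atp8b4, -2.18 for Cd63 and 4.21 for Cpq.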

How the results depend on the processing

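The count of 2 genes called for genotype in LMPPs was 36 with DESeq2, 8 in the joint fit of all 40 libraries, 10 with the newer edgeR estimator, 6 without an expression filter, 6 without scaling, 1 when Mbd3 was removed before the test, 0 with limma voom and 1 to 4 when each library was left out in turn. With limma voom Mbd3 had a log2 fold change of -6.70 (adjusted p = 0.0666) and Lgals1 -3.76 (adjusted p = 0.0907). Leaving out each library gave Mbd3 -6.98 to -6.08, with an adjusted p from 0.00443 to 0.0657, and Lgals1 -4.02 to -3.64, with 0.00439 to 0.0364. The 0 interactions called against HSCs became 37 with DESeq2, 1 without control mouse10372 and mouse10381, a setting chosen after seeing the data, and 0 to 1 when each LMPP library was left out. The 0 against ALPs became 36 with DESeq2, 1 without an expression filter, 1 without scaling and 0 to 2 when each library was left out. The 4 against BLPs became 73 with DESeq2, 2 without an expression filter and 1 to 6 when each library was left out. With the mouse as a replicate block that count was 1, and the block changed no call against HSCs or ALPs. The other settings tried were RLE scaling, a minimum count of 50, non-robust dispersions, labelled sex, age, and for interactions the 20 libraries of both populations, and these left each count within 1.5 times. For 98 other genes 2244 values were recomputed. Of these 2200 kept their direction or side of the threshold, 44 values of 22 genes passed it, and no called value changed sign, although 9 uncalled genes did. Of 32 list medians 17 changed sign under some setting, those of the stem cell, dendritic cell, interferon and immediate early lists under none of the 23 tried. The causes were not tested. Of the gene rows 27284 had no count in any LMPP library, and whether they were below the depth or not expressed was not tested.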
